A study of Homo sapiens with 12 samples.

Results

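JUN overexpression in the absence of YAP5SA induction was examined in 6 of 12 RNA-seq libraries. They were made from MCF10A, a line of human breast epithelium that does not form tumors. The 6 libraries were chosen by their labels alone: 3 came from cells with a JUN expression vector (JUN EtOH) and 3 from cells with the empty vector (vector EtOH). All of these cells carried a doxycycline-inducible allele of YAP5SA, a hyperactive YAP whose phosphorylation sites for the Hippo kinases are mutated, and all had received ethanol (EtOH), the solvent of doxycycline (Dox), so that the allele had not been induced. The 6 remaining libraries, made from the same kinds of cells given 100 ng/ml Dox, were used to ask where the effect of JUN differed once YAP5SA was induced, and they entered the fit, in which all 12 libraries shared 1 estimate of the spread. The viral vectors were delivered to whole cultures, the 3 replicates of a group are described as biological replicates, and the p-values measure the spread between them.

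JUN is a subunit of AP-1, a family of dimeric transcription factors that is assembled from JUN, FOS, ATF and MAF proteins through a leucine zipper. AP-1 is switched on by growth factors, stress and inflammatory signals through MAP kinases, and JUN can dimerize with itself or, more stably, with a FOS protein. In epithelial cells AP-1 is known for driving cytokines, proteases and genes of wound repair, and it shares many enhancers with YAP and its DNA-binding partners, the TEAD factors.

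The 6 libraries held 20321850 to 26310600 counted reads and 17352 to 17660 genes with at least 1 read, and 10 genes took 5.1 to 7.04% of the reads. Levels are counts scaled to library size (CPM), corrected for composition but not for gene length, so that they can be compared between libraries and not between genes. A count of 3 reads, used as the detection floor, corresponds to about 0.133 CPM in the vector EtOH libraries, and such a floor covers counting error only. Reads appeared to have been assigned to whole gene spans without regard to strand, which was inferred from the counts. Where 1 counted gene lay inside another, the outer gene had at least as many reads as the inner gene in all 12 libraries for 589 of 613 pairs (96.1%). On opposite strands this held for 158 of 174 pairs (90.8%). The other pairs did not follow, such as DEXI, with a mean of 824.6 reads, inside CIITA, with 4.2. A gene whose span overlaps another gene with a mean count of at least 50% of its own is therefore named with that partner. Such an overlap means that reads could be shared and does not measure how many were. The deviation of each library from its group mean was correlated with the GC content of the genes (14385 genes) at -0.197, -0.0589 and 0.224 in JUN EtOH replicates 1 to 3 and at -0.081 to 0.0676 in vector EtOH. With this correlation as a covariate, 5763 of the calls given below were kept. Because the deviations were taken within each group, that fit could not reveal a GC difference between the groups. Markers of breast epithelium summed to 10800 to 11300 CPM in the vector libraries and to 10800 to 12300 CPM in the JUN libraries, with none of the 13 genes at 0. Of 13 leukocyte markers, 6 had no read in any of the 6 libraries (among them CD3D, MS4A1 and LYZ), and the sum of the 10 endothelial markers was 3.05 to 3.44 CPM against 1.8 to 2.11 CPM. The 10 fibroblast markers summed to 115 to 130 CPM in vector EtOH and to 127 to 140 CPM in JUN EtOH, mostly from PDGFRA, and COL1A2, THY1 and TCF21 among them had no read. Fewer cells of a type and less RNA per cell cannot be told apart in such bulk samples.

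The JUN gene itself (Entrez ID 3725, chromosome 1, 59242517 to 59249720 on GRCh37, minus strand) was measured at 55, 35.5 and 52.2 CPM in the vector EtOH libraries and at 1399, 1374 and 1064 CPM in the JUN EtOH libraries. The count sums the cell's own transcript and that of the vector, which cannot be told apart. The groups were far from overlapping, with a 26.8-fold higher mean in JUN EtOH (log2 fold change 4.75 ± 0.18 SE, adjusted p = 1.74e-10, edgeR). YAP1 (Entrez ID 10413, chromosome 11, 101981178 to 102104155), the gene to which the inducible allele belongs, stood at 191, 171 and 176 CPM in vector EtOH and at 249, 243 and 211 CPM in JUN EtOH. All 3 JUN libraries were above all 3 vector libraries, but the difference did not pass the test (log2 fold change 0.39, adjusted p = 0.0755).

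JUN moved a large part of the transcriptome in both directions. Of 14775 genes tested, 2969 rose (20.1%) and 2797 fell (18.9%) at an adjusted p under 0.05, and the median log2 fold change of all genes was 0.000556. The large changes leaned to one side: 242 genes rose by at least 2 on the log2 scale and 109 fell by as much, and 96 against 34 passed 3. In 5706 of the 5766 called genes the 3 JUN libraries lay entirely above or below the 3 vector libraries, a pattern seen in 57.8% of all genes tested. Fewer genes were called when any of the 6 libraries was left out, down to 3834 without JUN EtOH replicate 1, and 3425 genes (59.4%) were called in the same direction whichever of the 6 libraries was omitted. A shared-read limit applied to 595 of the genes that rose and to 680 of those that fell.

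**Figure D1:**
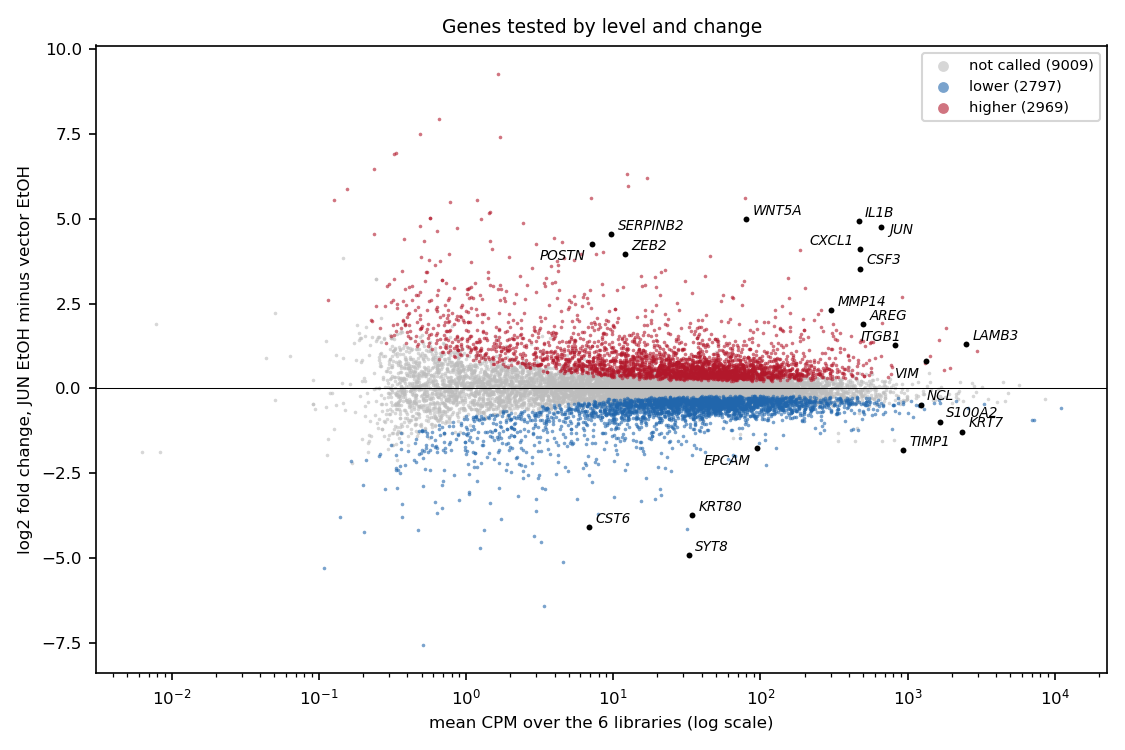
Each point is 1 of the 14775 genes tested, placed by its mean CPM over the 6 libraries (log axis) and by its log2 fold change, JUN EtOH minus vector EtOH; red points rose, blue points fell and grey points were not called. The genes with the largest changes rose more often than they fell, and IL1B, CXCL1 and CSF3 combined a large rise with a high level.

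The 12 genes that rose most, counting called genes at or above 5 CPM on average whose groups did not overlap, included 5 cytokines or chemokines. They were, in falling order, AQP9, IL24, ALDH1A2, FCAR, CXCL3, WNT5A, IL1B, JUN, SERPINB2, POSTN, CXCL1 and CXCL8, with log2 fold changes from 6.31 to 4.08. The 12 that fell most were SYT8, HR, CST6, KRT80, ANKRD2, AIF1L, SCNN1B, SLC27A2, PRR15L, SUSD2, ETNK2 and TJP3, with log2 fold changes from -4.91 to -2.76. SYT8 (Entrez ID 90019, chromosome 11, 1849537 to 1858751), a member of the synaptotagmin family, led the falls. Its values were 62.9, 75.9 and 50.3 CPM in vector EtOH against 1.45, 2.32 and 2.53 CPM in JUN EtOH, a 30.0-fold lower mean (log2 fold change -4.91 ± 0.20, adjusted p = 5.15e-10). HR, which encodes the corepressor hairless, fell from 58.3, 57.4 and 64.0 CPM to 3.65, 2.82 and 3.57 CPM, 17.9-fold. FCAR, the Fc receptor for immunoglobulin A, was barely read in vector EtOH (0.342, 0.200 and 0.269 CPM) and stood at 15.7, 13.8 and 12 CPM in JUN EtOH, 49.2-fold higher.

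**Figure D2:**
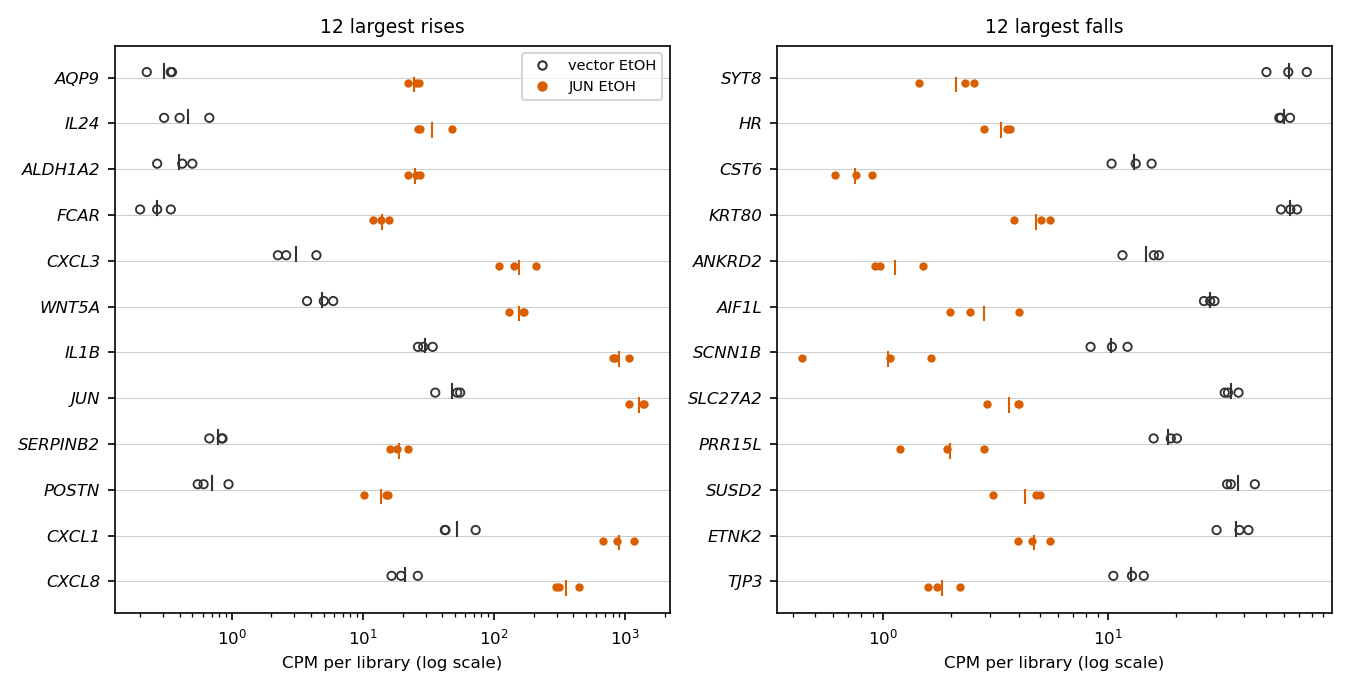
CPM in each library (log axis) of the 12 genes with the largest rises and the 12 with the largest falls; open circles are the 3 vector EtOH libraries, filled circles the 3 JUN EtOH libraries and vertical ticks the group means. In every gene shown the 3 JUN libraries are separated from the 3 vector libraries, which was a condition for being listed.

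Overlaps with other counted genes touch 4 of these leading genes. AQP9, a water and glycerol channel, lies within ALDH1A2 on the opposite strand, and the counts of ALDH1A2 exceeded those of AQP9 by only 1 to 3 reads in the vector libraries and by 2 to 8 reads in the JUN libraries. The rises of AQP9 (79.3-fold) and ALDH1A2 (62.4-fold) thus rest on nearly the same reads. Beyond the reads counted for AQP9 almost none are left for ALDH1A2, so a rise of ALDH1A2 of its own is not shown. IL24 overlaps FCMR, and TJP3 overlaps APBA3.

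The functional classes that carried these changes are shown in the plot of the gene lists, where each class is read against the 20.1% of all genes that rose and the 18.9% that fell. In the classes with the largest median rises, chemokines, IL-1 family genes and plasminogen activators, most tested members had risen. Of the listed chemokines only 8 of 21 passed the filter on low counts, and of the IL-1 family genes 11 of 20. Of the 52 lists plotted, 4 had no member that rose, namely those of DNA replication, oxidative phosphorylation, ribosome biogenesis and luminal keratins.

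**Figure D3:**
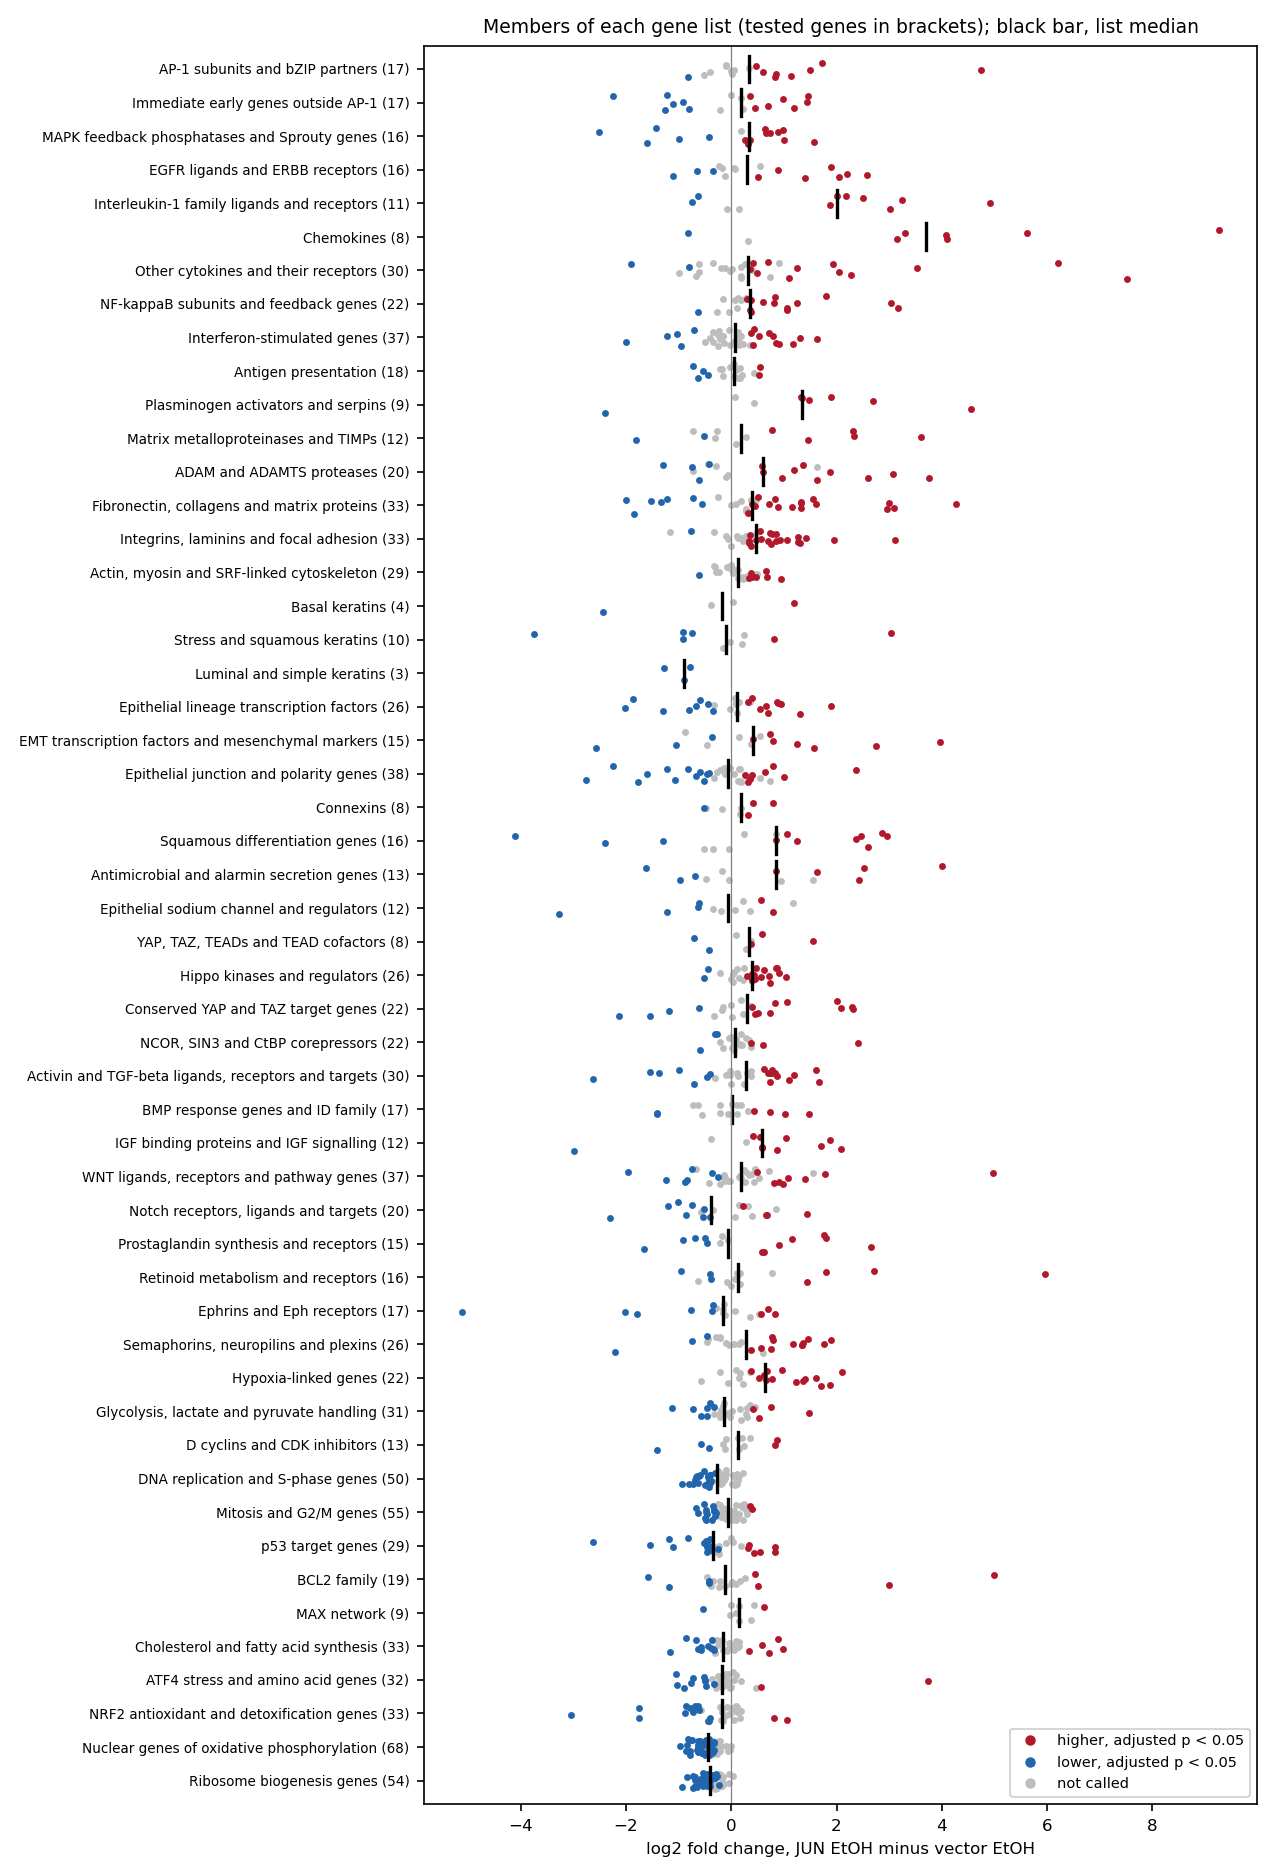
Log2 fold change, JUN EtOH minus vector EtOH, of every tested member (points) of 52 gene lists, with the number of tested genes in brackets and a black bar at each list's median; red members rose, blue members fell and grey members were not called. Chemokines have a median of 3.69 and IL-1 family genes one of 2.01, whereas oxidative phosphorylation (-0.44) and ribosome biogenesis (-0.41) are shifted as whole lists by a small amount.

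Within the AP-1 family itself, some partners of JUN rose and others were not called. Of 19 AP-1 and related basic leucine zipper genes, 17 passed the filter on low counts (BATF and MAF did not), 8 rose, among them JUN, FOSL1, FOSL2, ATF2, BATF2, MAFF and MAFG, and JUND fell, with a median log2 fold change of 0.35. FOSL1, which encodes FRA1, the main FOS protein of many epithelial cells, rose from 82.7, 69.4 and 77.2 CPM to 176, 149.9 and 179 CPM (2.2-fold, adjusted p = 9.18e-06). FOSL2, which encodes FRA2, rose from 198, 162 and 179 CPM to 335, 325 and 317 CPM (1.81-fold, adjusted p = 0.000287). In both genes the groups were well apart. The small MAF genes, whose products lack a transactivation domain, differed from one another: MAFF (1.77-fold) and MAFG (1.4-fold) rose, whereas MAFK stood at 60.8 to 66.4 CPM in vector EtOH and at 63.5 to 66.2 CPM in JUN EtOH.

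The JUN paralogs did not follow JUN. JUND, an AP-1 subunit often linked to quiescence, fell from 120.0, 119.6 and 118 CPM to 61.6, 62.3 and 79.7 CPM, 1.76-fold (log2 fold change -0.81 ± 0.17, adjusted p = 0.00213). JUNB, with 132, 124 and 109.8 CPM in vector EtOH and 120.4, 111 and 110.1 CPM in JUN EtOH, overlapped between the groups and was not called (adjusted p = 0.501). The classical FOS gene, an immediate early gene, was at 22.5, 26.0 and 18.4 CPM against 15.8, 18.5 and 16.2 CPM and was not called (adjusted p = 0.0857). ATF3 (2.14 ± 0.127 CPM against 2.13 ± 0.595 CPM), JDP2 (9.44 ± 0.222 against 9.5 ± 0.390 CPM) and BATF3 (2.63 ± 0.762 against 2.44 ± 0.327 CPM) all overlapped between groups. ATF2, a JUN dimerization partner, rose from 33.2, 27.2 and 30.1 CPM to 45.7, 47.7 and 44.3 CPM (1.52-fold, adjusted p = 0.00172), and its relative ATF7 reached 50.2 to 53.3 CPM from 34.9 to 44.6 CPM without passing the test (adjusted p = 0.0834). BATF2 was called (adjusted p = 0.0294) but lay below 1 CPM in every library, and its call was lost when any 1 of vector EtOH replicates 2 and 3 or JUN EtOH replicates 1 to 3 was left out, with adjusted p from 0.0503 to 0.11. FOSB, below 1.1 CPM throughout, overlaps ERCC1 and was not called.

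**Figure D4:**
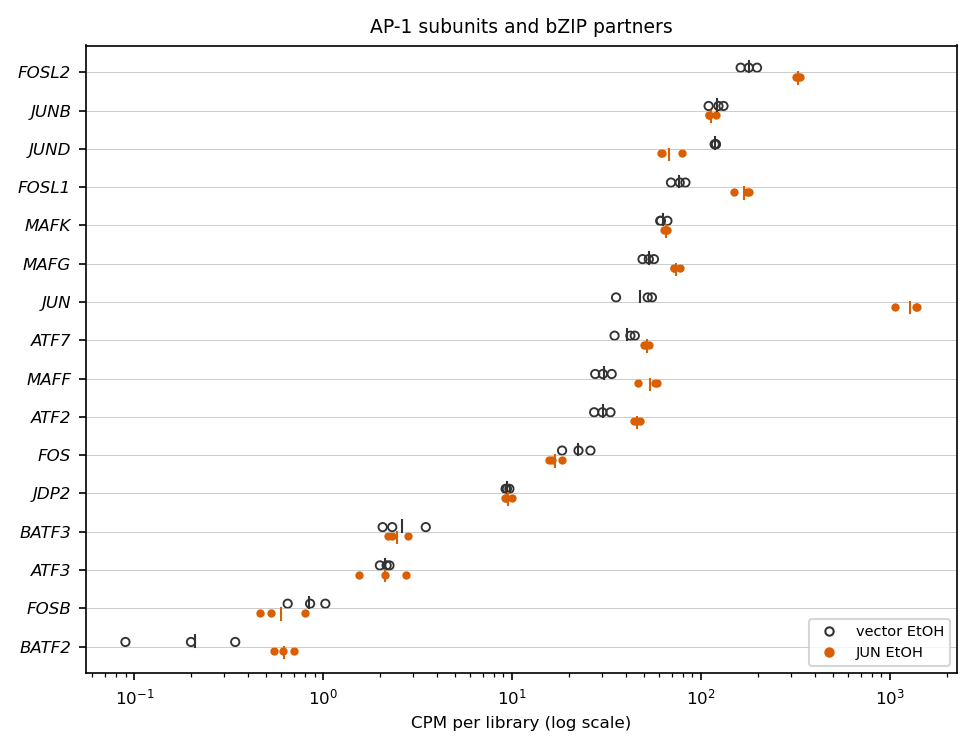
CPM in each library (log axis) of 16 tested AP-1 and related genes, ordered by level in vector EtOH; open circles are vector EtOH, filled circles JUN EtOH and vertical ticks group means. Within each row, JUN is shifted furthest to the right, FOSL1 and FOSL2 lie to the right of their vector libraries and JUND to the left, and in JUNB, MAFK, JDP2, ATF3, BATF3, FOS and FOSB the groups overlap.

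Immediate early genes outside AP-1 were split. Of 17 tested, 7 rose and 6 fell, with a median log2 fold change of 0.19. ZFP36L1 and PHLDA1, an RNA decay factor and an apoptosis-linked gene, rose 2.73-fold and 2.72-fold, and IER3 rose from 177, 173 and 172 CPM to 470.2, 351 and 374 CPM (2.29-fold). The serum response gene EGR1 went the other way, from 129, 116 and 119 CPM to 64.3, 60.7 and 68.1 CPM (1.89-fold lower, adjusted p = 0.000109). NR4A1, a nuclear receptor of the same early wave, fell from 5.29, 3.44 and 3.01 CPM to 0.748, 1.01 and 0.704 CPM, and the antiproliferative gene BTG2 fell 2.15-fold.

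Feedback inhibitors of MAP kinase signalling were also divided, with 10 of 16 higher and 5 lower. DUSP1, a phosphatase of JNK, p38 and ERK, rose from 386, 420.0 and 367 CPM to 711, 665 and 580.4 CPM (1.67-fold). DUSP5, DUSP7 and DUSP10 rose 1.98-fold, 1.84-fold and 2.01-fold, and SPRED3 rose 2.99-fold. DUSP9 (5.72-fold) and SPRY1 (3.02-fold) fell, each from a level under 7 CPM.

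Several ligands of the EGF receptor rose, whereas EGFR was not called and ERBB3 fell. Of the 16 ligand and receptor genes, 7 rose (5 without vector EtOH replicate 2 or JUN EtOH replicate 1) and 3 fell, and TGFA, AREG, EREG, HBEGF and EPGN were among those that rose. Amphiregulin (AREG) went from 216, 208 and 216 CPM to 889, 815 and 665 CPM (3.70-fold, adjusted p = 7.26e-07). EREG (epiregulin) rose 5.94-fold, from 15.4 ± 2.91 to 92.0 ± 18 CPM, HBEGF 4.57-fold and EPGN 4.13-fold. In each of these genes the lowest JUN library was above the highest vector library. EGFR was measured at 152, 104 and 128 CPM in vector EtOH and at 206, 172 and 187 CPM in JUN EtOH. All 3 JUN libraries were above all 3 vector libraries, but it was not called (adjusted p = 0.116). In the edgeR fit of only the 6 libraries it passed (log2 fold change 0.559, adjusted p = 0.00117). ERBB3 fell 1.57-fold.

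The interleukin-1 system was among the most strongly raised groups. Of 20 listed genes, 11 passed the filter on low counts. Of these 11, 7 rose, all by at least 1 on the log2 scale, 2 fell and the median log2 fold change was 2.01. IL1B (Entrez ID 3553, chromosome 2, 113587328 to 113594393), a secreted alarm cytokine, was at 34.0, 26.2 and 28.8 CPM in vector EtOH and at 1060, 807 and 837 CPM in JUN EtOH, 30.4-fold higher (log2 fold change 4.92 ± 0.15, adjusted p = 4.54e-11). IL1A, which acts on the same receptor, rose 9.49-fold, from 33.2, 28.1 and 26.8 CPM to 368, 247 and 223 CPM. Ligands, receptor and antagonists thus moved in the same direction: the signalling receptor IL1R1 rose 4.03-fold, the decoy receptor IL1R2 8.12-fold and the receptor antagonist IL1RN 4.56-fold. IL18, another family member, fell from 116, 145 and 126 CPM to 69.1, 85.3 and 77.4 CPM (1.67-fold).

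Chemokines, chiefly those that draw neutrophils, formed the list with the highest median (3.69). Of 21 listed, 8 passed the filter on low counts. Of these 8, 6 rose, all by at least 1 on the log2 scale, and 6 rose whichever library was left out. A gene without reads in vector EtOH, such as CXCL5, could pass the filter only through the other groups. The share and the median therefore lean to rises and hold for the tested genes only. CXCL8 (Entrez ID 3576, chromosome 4, 74606236 to 74609433) was at 26.2, 19.5 and 16.5 CPM in vector EtOH and at 443, 314 and 299 CPM in JUN EtOH (16.9-fold, adjusted p = 2.82e-09). CXCL1 rose 17.2-fold to 901 ± 249 CPM, CXCL3 rose 48.9-fold to 153 ± 51.6 CPM, and CCL20, which attracts CCR6-bearing lymphocytes and dendritic cells, rose 8.89-fold to 138 ± 35.0 CPM. CXCL1 and CXCL3 are close copies, and the split of reads between them is uncertain. JUN EtOH replicate 1 had the highest value of the 3 JUN libraries in each of these 4 chemokines. CXCL5 had no read in the vector libraries and 117, 59 and 50 reads in the JUN libraries, at least 25-fold higher against a floor of 3 reads per library. CXCL16, which overlaps MED11, fell 1.76-fold.

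Of 30 other cytokines and cytokine receptors, 12 rose and 2 fell. CSF3, the granulocyte colony-stimulating factor, rose from 95.9, 69.6 and 63.3 CPM to 1074, 837 and 733 CPM (11.6-fold, adjusted p = 3.66e-08). CSF2 had no read in vector EtOH and 26, 27 and 14 reads in JUN EtOH, at least 7.37-fold higher against the same floor. LIF rose 4.13-fold, and IL24 rose from 0.304, 0.399 and 0.673 CPM to 47.6, 27.3 and 26.2 CPM. IL24 overlaps FCMR on the opposite strand (390 FCMR reads beside 648 IL24 reads in JUN EtOH replicate 2). IL6 did not join them: it was at 2.70, 1.70 and 1.08 CPM in vector EtOH and at 0.528, 0.379 and 0.563 CPM in JUN EtOH, 3.75-fold lower (adjusted p = 0.00166). IL6 overlaps STEAP1B, which had 13, 12 and 13 reads in vector EtOH beside 71, 34 and 24 for IL6. In JUN EtOH STEAP1B had 28, 21 and 18 reads beside 12, 9 and 12 for IL6. IL7R, at 3.94 to 4.89 CPM against 2.91 to 3.83 CPM, was not called.

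Genes of the NF-kappaB system, which shares many inflammatory enhancers with AP-1, rose in 13 of 22 cases and fell in 1, with a median log2 fold change of 0.36. TNFAIP3, the ubiquitin-editing inhibitor A20, rose from 20.2, 13.7 and 14.9 CPM to 169, 119 and 114 CPM (8.19-fold, adjusted p = 2.95e-08). TNIP1, which binds A20, rose 2.37-fold, and BIRC3, an inhibitor of apoptosis, rose 3.49-fold. NFKBIZ rose 8.95-fold and overlaps NXPE3, which had 675 to 878 reads in the vector libraries and 778 to 1044 in the JUN libraries.

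Interferon-stimulated genes had a median close to 0 (log2 fold change 0.07, 0.000674 to 0.116 when single libraries were left out, and -0.03 over the 30 members without overlaps) but were divided: 11 of 37 rose and 5 fell, and 7 rose when JUN EtOH replicate 1 was left out. IRF9, the DNA-binding part of the interferon complex ISGF3, rose from 5.36, 5.29 and 3.63 CPM to 9.99, 13.5 and 11.7 CPM (2.46-fold), and SAMD9L rose 3.10-fold. The membrane-bound antiviral genes IFITM1, IFITM2 and IFITM3 fell 2.03-fold, 2.34-fold and 1.95-fold, with IFITM2 going from 368, 425 and 348 CPM to 145, 167 and 175 CPM. These 3 genes are close copies between which the counting could split reads, so their separate values are uncertain. IFI44L fell 4.0-fold. HLA-E, a nonclassical ligand of natural killer cell receptors, rose 1.44-fold.

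Transcripts of the plasminogen system rose for its activators and for some of its inhibitors. Of 9 genes, 6 rose, all by at least 1 on the log2 scale, and the median was 1.34. SERPINB2, an inhibitor of urokinase, rose from 0.837, 0.848 and 0.673 CPM to 22.0, 18 and 16 CPM (23.6-fold, adjusted p = 6.19e-10). PLAUR, the urokinase receptor, rose 2.77-fold, from 20.8, 19.2 and 19.4 CPM to 64.6, 49.1 and 51.2 CPM. The urokinase gene PLAU rose 6.46-fold, and its span lies within C10orf55 on the opposite strand, whose counts exceeded those of PLAU by only 7 to 12 reads per library. The protease inhibitor SERPINE2 behaved in the opposite way, falling from 25.6, 18 and 17.3 CPM to 4.31, 3.67 and 3.52 CPM (5.30-fold).

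Of 21 listed matrix metalloproteinases and their inhibitors, 12 passed the filter on low counts. MMP1, MMP3, MMP9, MMP10 and MMP13 were among those that did not. Of the 12 tested, 5 rose and 2 fell (1 without vector EtOH replicate 1 or 3). MMP14, a membrane-bound activator of MMP2, rose from 101, 102 and 102 CPM to 567, 489 and 459 CPM (4.98-fold, adjusted p = 2.43e-09), MMP2 rose 12.2-fold from 0.566 ± 0.0647 CPM, and MMP19 rose 5.05-fold. The inhibitor TIMP1 was at 1433, 1550 and 1391 CPM in vector EtOH and at 387, 373 and 485 CPM in JUN EtOH, 3.51-fold lower (adjusted p = 2.92e-06). TIMP1 lies within SYN1, and SYN1 counts exceeded it by 7 to 47 reads per library. Of the ADAM and ADAMTS proteases, which shed surface proteins and cut matrix, 10 of 20 rose and 4 fell, among them ADAMTS6 (8.43-fold higher). ADAM17, the sheddase of EGF receptor ligands, rose 1.51-fold and overlaps IAH1. The list median of 0.59 was -0.06 over the 9 members that overlap no other counted gene.

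Genes of fibronectin, collagens and other matrix proteins rose more often than they fell. Of 33 tested, 17 rose, 7 fell and the median log2 fold change was 0.40. Fibronectin (FN1) rose from 57.1, 35.6 and 42.9 CPM to 421, 323 and 317 CPM (7.82-fold, adjusted p = 1.45e-07). Fibrillin 1 (FBN1) rose 7.97-fold, periostin (POSTN) 19.3-fold from 0.700 ± 0.212 to 13.6 ± 2.96 CPM, and lumican (LUM) 8.53-fold. The collagen gene COL1A1 stood at 3.38, 3.24 and 3.28 CPM against 3.96, 3.37 and 2.53 CPM, overlapping between the groups. THBS1, the adhesive glycoprotein thrombospondin 1, fell from 130.1, 87.3 and 107 CPM to 25.9, 26.2 and 29.7 CPM (3.97-fold, adjusted p = 2.35e-07). EFEMP1 (2.89-fold), FBLN1 (2.53-fold) and P3H2, a collagen prolyl 3-hydroxylase (3.57-fold), also fell. Of the fibroblast markers, 6 were tested, DCN (2.94-fold), LUM and FAP (3.22-fold) rose and none fell, beside a summed level that overlapped between the groups (115 to 130 CPM against 127 to 140 CPM). Most of that sum came from PDGFRA, at 102, 114 and 102 CPM in vector EtOH and 87.9, 96.2 and 92.6 CPM in JUN EtOH. The part of other cell types in these values was not tested.

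Integrin and laminin genes mostly rose, with 21 of 33 higher, ITGB4 lower and a median of 0.48. Between 18 and 20 were higher when single libraries were left out. ITGB1, the shared beta chain of many matrix receptors, rose from 518, 446 and 488 CPM to 1322, 1210 and 962 CPM (2.41-fold, adjusted p = 0.000104). LAMB3, a chain of laminin-332, which links epithelium to its basement membrane, rose 2.47-fold, from 1621, 1320 and 1391 CPM to 3768, 3384 and 3546 CPM. ITGB8, which serves in activating latent TGF-beta, rose 3.86-fold. ITGB4, the hemidesmosomal partner of laminin-332, fell from 812, 740.0 and 722 CPM to 435, 429 and 483 CPM (1.69-fold), so that the ligand and this receptor chain moved apart. Of 29 cytoskeletal genes 7 rose (3 without JUN EtOH replicate 1 and 4 without vector EtOH replicate 3) and 1 fell. These are 24.1% and 3.4%, beside 20.1% and 18.9% of all genes. LIMA1 (1.92-fold) and TPM4 (1.6-fold) were higher and CNN2 (1.52-fold) lower.

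Luminal keratins fell, while basal and stress keratins differed among themselves. All 3 tested luminal keratins fell: KRT7 from 3114, 3414 and 3500 CPM to 1294, 1269 and 1578 CPM (2.42-fold), KRT8 1.73-fold and KRT18 1.87-fold. All 3 overlap neighbours in the keratin clusters (KRT86 for KRT7, and each other for KRT8 and KRT18). KRT8 counts exceeded those of KRT18 by 1747, 1826 and 2275 reads in vector EtOH and by 1803, 1549 and 1870 reads in JUN EtOH. The falls of KRT8 and KRT18 can thus rest on the same reads, and separate falls of these genes are not shown. Of the basal keratins, KRT14 rose from 273, 198 and 156 CPM to 372, 548 and 523 CPM (2.3-fold), KRT15 fell from 32.9, 56.7 and 35.0 CPM to 5.06, 9.69 and 8.35 CPM (5.38-fold), and KRT5, with 4634, 4514 and 4697 CPM against 3173, 3438 and 3952 CPM, was not called (adjusted p = 0.0807) although the groups did not overlap. KRT80 (Entrez ID 144501, chromosome 12, 52562780 to 52585798), a type II epithelial keratin, fell 13.3-fold, from 68.8, 58.3 and 64.2 CPM to 5.02, 3.83 and 5.54 CPM (adjusted p = 8.99e-10). Of 10 stress and squamous keratins 2 rose and 4 fell: KRT6B rose 1.76-fold, its close copy KRT6A, with which it may share reads, overlapped between the groups (1972 to 2356 CPM against 2142 to 2651 CPM), and KRT81, which shares nearly all its reads with KRT86, fell 1.89-fold.

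Epithelial lineage factors were split, with 10 of 26 higher and 8 lower. TP63, the master regulator of basal epithelium, rose from 15.7, 13.6 and 13.5 CPM to 28.3, 30.0 and 23.9 CPM (1.92-fold, adjusted p = 0.000133). The ETS factors ELF3 (2.47-fold) and EHF (1.83-fold) rose with it, and RUNX2, whose span overlaps SUPT3H, rose 3.71-fold. SOX9, a progenitor factor, fell from 4.33, 4.89 and 4.35 CPM to 0.880, 1.26 and 1.17 CPM (4.07-fold), CEBPA fell 3.65-fold and TFAP2C, a luminal factor, fell 1.75-fold.

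Transcription factors of the epithelial to mesenchymal transition (EMT) moved in opposite directions. ZEB2 rose from 1.6, 1.65 and 1.08 CPM to 26.9, 21.7 and 19.2 CPM (15.7-fold, adjusted p = 8.68e-09), SNAI2 rose 6.69-fold to 97.5 ± 6.21 CPM and ZEB1 rose 2.96-fold. SNAI1, a close relative of SNAI2, fell from 4.94, 5.44 and 5.70 CPM to 1.06, 0.716 and 0.939 CPM (5.91-fold, adjusted p = 4e-07). In all, 7 of 15 EMT factors and mesenchymal markers rose and 3 fell. Vimentin (VIM) rose from 961, 938 and 1008 CPM to 1615, 1518 and 1940 CPM (1.75-fold), and N-cadherin (CDH2) rose 1.33-fold, a call that was lost without vector EtOH replicate 2 (adjusted p = 0.0752) or JUN EtOH replicate 1 (adjusted p = 0.0591). E-cadherin (CDH1), the target most often used to mark EMT, stood at 137, 121 and 130.1 CPM in vector EtOH and at 114, 123 and 124 CPM in JUN EtOH, overlapping between the groups (adjusted p = 0.502).

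Junction and polarity genes changed in both directions, with 12 of 38 lower (31.6%, beside 18.9% of all genes) and 8 higher (21.1%, beside 20.1%). When any 1 of the 6 libraries was left out, 4 or 5 rose. EPCAM, an epithelial adhesion protein, fell from 137, 163 and 138 CPM to 40.7, 43.6 and 44.9 CPM (3.39-fold, adjusted p = 5.83e-08). CLDN7, a claudin that binds EPCAM, fell 3.04-fold, and periplakin (PPL) fell 4.75-fold, from 181 ± 12.9 to 38.1 ± 6.26 CPM. The desmosomal cadherins DSC2 (1.99-fold) and DSG2 (1.56-fold, overlapping its antisense gene DSG2-AS1) rose. Of the epithelial sodium channel chains, SCNN1B fell from 10.4, 12.2 and 8.35 CPM to 0.440, 1.64 and 1.08 CPM (9.67-fold). SCNN1G fell 2.33-fold and SCNN1A, which overlaps LTBR, fell 1.53-fold. The chain SCNN1D was also tested, and its value is not given here.

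Of 37 listed genes of squamous differentiation, 16 passed the filter on low counts. Of these 16, 8 rose and 3 fell, with a median log2 fold change of 0.86. A gene with too few reads in vector EtOH could pass the filter only through the other groups. The share and the median can therefore lean to rises and hold for the tested genes only. TGM2, a tissue transglutaminase, rose from 24.4, 18.7 and 25.9 CPM to 153, 94.8 and 134 CPM (5.53-fold), and SCEL, sciellin of the cornified envelope, rose 7.25-fold from 0.465 ± 0.299 CPM. The transglutaminase of the cornified envelope, TGM1, fell 2.47-fold, and the protease inhibitor CST6 fell from 10.3, 15.6 and 13.2 CPM to 0.616, 0.759 and 0.892 CPM (17.2-fold). Of 24 listed antimicrobial and alarmin genes, 13 passed the filter, with the same limit, and of these 5 rose and 3 fell. LCN2, an iron-sequestering lipocalin, rose from 1.03, 1.25 and 0.718 CPM to 14.9, 15.6 and 17.8 CPM (16.1-fold). The calprotectin chains S100A8 (5.39-fold) and S100A9 (3.08-fold) rose too. S100A2, of the same S100 family, fell from 1947, 2513 and 2155 CPM to 995, 1222 and 1140 CPM (1.97-fold).

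The AP-1 motif was read in the promoters of genes that had moved, to show sequence beside these values. AP-1 dimers bind TGACTCA, or its reverse complement TGAGTCA, and dimers with ATF proteins prefer TGACGTCA; the letters were searched on both strands in the 300 bases from 250 before to 50 after each RefSeq start site (GRCh38.p14). Such a sequence was held for 11485 of the 14775 tested genes (77.7%), under the 80% that a comparison of motif shares between groups of genes was required to have, so that comparison is void and is not given. Of all promoters searched, 3.42% held TGACTCA and 3.11% held TGACGTCA. The windows below are from genes that rose, 29 bases each with the motif in capitals, 5′ to 3′ on the strand of the gene; they show which letters stand there and not that JUN was bound.
CXCL8: aggaagtgtgaTGACTCAggtttgccctg
IL1A: gcgaagaagacTGACTCAggcttaagctg
IL1RN: ttctgctagccTGAGTCAccctcctggaa
POSTN: taaacatgcagTGAGTCAattgttcatat
F3: aatcactggggTGAGTCAtcccttgcagg
PLAUR: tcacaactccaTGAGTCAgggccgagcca
FOSL2: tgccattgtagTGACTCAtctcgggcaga
SCEL: tcctccctgagTGACTCAgccgctgagca
Counted from the start site, the first base of the motif lies at -137 in CXCL8 (chr4:73740421-73740449, plus strand), at -12 in IL1A (chr2:112784488-112784516, minus strand), at -223 in IL1RN (chr2:113117737-113117765, plus strand) and at -220 in POSTN (chr13:37598971-37598999, minus strand). It lies at -210 in F3 (chr1:94541952-94541980, minus strand), at -186 in PLAUR (chr19:43670338-43670366, minus strand), at -49 in SCEL (chr13:77535646-77535674, plus strand) and at 5 in FOSL2 (chr2:28392851-28392879, plus strand). The IL1A promoter held the motif once more, as TGAGTCA at 39.
The same letters stood in promoters of genes that fell, here S100A2 (chr1:153565879-153565907, minus strand) and BBC3 (chr19:47232763-47232791, minus strand).
S100A2: ggagtgggctgTGACTCAcaggcatgtca
BBC3: gcactggaaggTGAGTCActctggtgagg

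YAP is held inactive by the Hippo kinases, and genes of that pathway rose more often than they fell. Of 26 Hippo kinases and regulators, 14 rose and 2 fell, with a median log2 fold change of 0.39. Without vector EtOH replicate 2 or JUN EtOH replicate 1, 8 rose and 1 fell, and without JUN EtOH replicate 2, 12 rose and 1 fell. LATS2, a kinase that phosphorylates YAP, rose from 37.5, 29.5 and 31.5 CPM to 58.3, 54.0 and 52.8 CPM (1.67-fold), and FRMD6 rose 2.07-fold. WWTR1, which encodes the YAP paralog TAZ, rose 1.5-fold. The TEAD cofactor VGLL3 rose 2.93-fold, from 21.8, 16.4 and 18.9 CPM to 59.3, 58.2 and 50.1 CPM, and TEAD2 fell 1.64-fold.

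Conserved YAP and TAZ target genes moved in both directions in these cells, in which YAP5SA was not induced. Of 22 tested, 10 rose and 4 fell, the median log2 fold change was 0.30, and 6 rose without JUN EtOH replicate 1. F3, the tissue factor that starts coagulation, rose from 109.9, 70.9 and 81.7 CPM to 535, 397 and 366 CPM (4.94-fold, adjusted p = 7.51e-07). CCDC80 (4.91-fold), NT5E, the ectonucleotidase CD73 (4.03-fold), and IGFBP3 (4.24-fold, from 1.31 ± 0.221 CPM) also rose. CCN2 (also known as CTGF), the reference target of the pathway, fell from 20.0, 12.8 and 17.6 CPM to 7.39, 6.07 and 8.82 CPM (2.27-fold, adjusted p = 6.17e-05). Its relative CCN1 (CYR61) was at 71.0, 56.2 and 78.4 CPM against 60.7, 59.2 and 64.5 CPM and was not called. Corepressors of the NCOR, SIN3 and CtBP families changed little as a list (median 0.08), with NCOR1 at 106 to 118 CPM against 116 to 136 CPM, and HDAC9, a class IIa deacetylase, rose 5.32-fold from 1.57 ± 0.562 CPM.

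Activin and TGF-beta ligands, receptors, pathway genes and targets rose in 12 of 30 cases and fell in 7. TGFBI, a matrix protein, rose from 1922, 1762 and 2008 CPM to 4199, 3515 and 4391 CPM (2.13-fold), and LTBP1, which anchors latent TGF-beta in the matrix, rose 3.05-fold. INHBA, the activin A subunit, rose from 2.21, 1.4 and 1.97 CPM to 6.29, 6.62 and 5.07 CPM (3.19-fold). GDF15, a stress-induced member of the TGF-beta superfamily, fell from 25.9, 32.7 and 27.2 CPM to 3.83, 5.77 and 4.18 CPM (6.21-fold, adjusted p = 1.07e-07). In the BMP branch, ID3 fell 2.64-fold and ATOH8 rose 2.79-fold. Of 12 genes of IGF signalling, 9 rose and IGFBP2 fell, from 6.01, 6.99 and 5.25 CPM to 0.660, 0.885 and 0.751 CPM (7.87-fold), while IGFBP4 (3.65-fold) and IGFBP6 (2.06-fold) rose.

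WNT genes were led by a single ligand. WNT5A (Entrez ID 7474, chromosome 3, 55499743 to 55524567), which signals mostly without beta-catenin, rose from 5.02, 3.74 and 5.92 CPM to 169.7, 166 and 130.0 CPM (31.6-fold, adjusted p = 9.9e-11). LGR4, a receptor for R-spondins, rose 2.65-fold and DKK1, an inhibitor of beta-catenin signalling, fell 2.37-fold. The list as a whole had 8 of 37 higher (21.6%) and 7 lower (18.9%), near the 20.1% and 18.9% of all genes. When vector EtOH replicate 1 or JUN EtOH replicate 2 was left out, 4 were lower. Of 20 Notch genes 8 were lower and 4 higher (2 higher without vector EtOH replicate 2, JUN EtOH replicate 1 or JUN EtOH replicate 2), with a median of -0.38 (-0.17 without vector EtOH replicate 3). NRARP, a direct Notch target and feedback inhibitor, fell from 8.37, 6.94 and 8.21 CPM to 1.58, 1.26 and 1.92 CPM (4.94-fold), and DTX4 fell 2.31-fold.

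In other signalling systems close relatives moved in opposite directions. In prostaglandin synthesis, the inducible cyclooxygenase PTGS2 rose from 5.86, 3.54 and 3.95 CPM to 21.3, 13.7 and 12.2 CPM (3.50-fold), the constitutive PTGS1 fell from 6.54, 5.39 and 7.18 CPM to 1.94, 2.36 and 1.74 CPM (3.16-fold), and the prostaglandin E synthase PTGES rose 1.55-fold. In retinoid metabolism, 4 of 16 rose and 3 fell (1 without vector EtOH replicate 1, JUN EtOH replicate 1 or JUN EtOH replicate 2). These shares are near the 20.1% and 18.9% of all genes, and the median log2 fold change was 0.12, so a shift of the list as a whole is not shown. ALDH1A3, which makes retinoic acid, rose 3.47-fold from 70.8 ± 9.26 to 246 ± 9.35 CPM, the carrier RBP4 6.57-fold and the retinol transporter STRA6 2.72-fold. The remaining call was ALDH1A2, whose reads are nearly all counted for AQP9 too, as described above, so its own rise is not shown. Those that fell, named here after their values were seen, were the retinol acyltransferase LRAT (1.95-fold), the receptor RXRA (1.33-fold) and the dehydrogenase RDH10 (1.31-fold). Among ephrin genes, 6 of 17 fell (3 without vector EtOH replicate 3 or JUN EtOH replicate 1) and 3 rose. EPHB6, a receptor without kinase activity, fell from 7.83, 10.2 and 8.71 CPM to 0.176, 0.169 and 0.422 CPM (34.6-fold, adjusted p = 1.33e-06), EPHB3 fell 4.06-fold, and the ligand EFNB1 and the receptor EPHA2 rose 1.78-fold and 1.48-fold. Of 26 semaphorins and their receptors, 12 rose and 3 fell, with SEMA3B (3.70-fold), SEMA7A (3.38-fold), SEMA3C (2.52-fold) and the coreceptor NRP1 (1.70-fold) higher and SEMA6B lower (4.64-fold).

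Hypoxia-linked genes rose in 14 of 22 cases and fell in none, with a median log2 fold change of 0.65, and 13 or 14 rose whichever library was left out. VEGFA, the angiogenic growth factor, rose from 53.8, 43.1 and 44.5 CPM to 246, 182 and 183 CPM (4.32-fold, adjusted p = 7.11e-08). ADM, the vasodilator peptide adrenomedullin, rose 3.69-fold and the carbonic anhydrase CA12 3.26-fold, from 74.2 ± 7.0 to 242 ± 24.8 CPM. CA9 (1.95-fold) and EGLN3 (3.05-fold) rose as well, and their spans overlap ARHGEF39 and SPTSSA. HIF1A, a list member named here after its values were seen, rose from 294, 244 and 279 CPM to 829, 681 and 659 CPM (2.65-fold, adjusted p = 1.93e-06). The glycolytic list, many of whose genes are also known to respond to hypoxia, did not follow: 4 of 31 rose (2 without JUN EtOH replicate 1) and 7 fell (4 without vector EtOH replicate 2 or 3 or JUN EtOH replicate 1 or 2), with a median of -0.14. These are 12.9% and 22.6%, beside 20.1% and 18.9% of all genes. The glucose transporter SLC2A1 rose 1.45-fold.

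Of 50 tested genes of DNA replication, 24 fell, 26 were not called and none rose; the median log2 fold change was -0.28, and between 19 and 24 fell when single libraries were left out. MCM2, a subunit of the replicative helicase, fell from 205, 192 and 204 CPM to 123, 119 and 138 CPM (1.58-fold), PCNA, the sliding clamp, from 177, 175 and 169.9 CPM to 109, 114 and 112 CPM (1.56-fold), and the licensing factor CDT1 from 113 ± 2.56 to 64.6 ± 10.4 CPM (1.74-fold). E2F2 fell 1.92-fold. Of 55 mitotic genes 14 were lower (25.5%, beside 18.9% of all genes; 9 without vector EtOH replicate 2) and 2 higher (none without that library), the median was -0.07 (-0.14 without that library), and CDC20 (1.54-fold) and CCNB1 (1.39-fold) were among those that fell.

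Regulators of the G1 phase moved in both directions. CDK4 fell from 129, 145 and 137 CPM to 88.2, 91.2 and 95.2 CPM (1.5-fold), whereas its relative CDK6 rose from 107, 71.9 and 92.0 CPM to 188, 157 and 138 CPM (1.78-fold). CCND2 rose 1.82-fold, CCND1, a classical AP-1 and YAP target, overlapped between the groups (208 to 269 CPM against 204 to 233 CPM, adjusted p = 0.447), and the CDK inhibitor CDKN1C fell 2.67-fold.

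Targets of p53 fell more often than they rose. Of 29 tested, 15 fell, 6 rose and the median log2 fold change was -0.35. When JUN EtOH replicate 1 was left out 1 rose, without JUN EtOH replicate 2 there were 2, and without vector EtOH replicate 3 there were 3. FDXR, a mitochondrial reductase, fell from 30.8, 42.2 and 35.8 CPM to 10.7, 13.3 and 13.2 CPM (2.93-fold), and BBC3, which encodes the death activator PUMA, fell 2.27-fold. GDF15 and BTG2, described above, belong to this list too.

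Nuclear genes of oxidative phosphorylation fell in 40 of 68 cases and rose in none, with a median log2 fold change of -0.44. The number of calls rested on single libraries, with 20 lower without JUN EtOH replicate 1 and 21 without vector EtOH replicate 2. ATP5F1D, a subunit of ATP synthase, fell from 231, 307 and 243 CPM to 114, 131 and 152 CPM (1.97-fold), and the complex I subunit NDUFS8 fell 1.79-fold. SDHA fell 1.25-fold, and NDUFS1, with 83.5 to 93.1 CPM against 83.1 to 87.7 CPM, overlapped between the groups. Genes of ribosome biogenesis showed the same pattern, with 39 of 54 lower, none higher, a median of -0.41 and 27 to 37 lower when single libraries were left out. The nucleolar proteins FBL and NCL, both of which act in ribosomal RNA processing, fell from 183, 217 and 204 CPM to 107, 118 and 141 CPM (1.66-fold) and from 1435 ± 123 to 1029 ± 25 CPM (1.4-fold). BOP1 (1.79-fold) and RRP9 (1.92-fold) fell with them.

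Of 32 targets of ATF4 and amino acid genes, 10 fell and 2 rose: ASNS, asparagine synthetase, fell from 24.2, 27.4 and 26.8 CPM to 13.2, 11.2 and 13.8 CPM (2.05-fold) and PSAT1, of serine synthesis, 1.85-fold, while VLDLR rose 13.4-fold from 0.574 ± 0.172 CPM. Of 33 antioxidant genes linked to NRF2, 13 fell and 2 rose. ALDH3A1 fell from 36.2, 39.7 and 39.9 CPM to 9.77, 13.7 and 11 CPM (3.36-fold), AKR1B10 fell 8.28-fold to 0.222 ± 0.116 CPM, and HMOX1, heme oxygenase 1, rose 2.07-fold. In cholesterol and fatty acid synthesis, 11 of 33 fell (4 to 7 without any 1 library other than JUN EtOH replicate 3) and 5 rose.

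The macrophage-associated genes CD14 and CD68 of the leukocyte list moved in opposite directions. CD14, a lipopolysaccharide coreceptor, fell from 24.3, 30.9 and 25.4 CPM to 11.7, 9.35 and 9.20 CPM (2.66-fold), and CD68, a lysosomal glycoprotein, rose from 29.8, 27.9 and 28.9 CPM to 83.2, 77.9 and 93.3 CPM (2.94-fold). The summed level of the leukocyte list was 473 to 559 CPM in vector EtOH and 423 to 467 CPM in JUN EtOH, and most of it came from CSF1R.

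Finally, the effect of JUN without YAP5SA was set against its effect in the Dox libraries, which have vector controls of their own. Of the 5766 genes called without Dox, 3867 were also called with Dox in the same direction, 30 in the opposite direction, and 1869 were not called with Dox. A difference between the effects was called for 165 of 14775 genes (1.12%), 122 of them below 0 and 43 above 0, and for 97 when vector EtOH replicate 3 was left out, 105 without JUN EtOH replicate 1, 104 without JUN EtOH replicate 2 and 249 without vector Dox replicate 1. JUN itself was among them: its log2 fold change was 4.75 without Dox and 2.72 with Dox (difference -2.03, adjusted p = 0.000133). INHBA had the most negative difference of the genes named here, rising with JUN in the absence of YAP5SA (1.67) and falling in its presence (-1.97), and ADM and EGLN3 also had opposite signs (1.88 and 1.61 against -0.65 and -0.64). E-cadherin (CDH1) and CCND1 were close to 0 without Dox (-0.11 and -0.12) and lower with JUN in the presence of Dox (-1.14 and -1.12). ATOH8 and EHF rose further in the presence of YAP5SA (1.48 and 0.87 against 4.06 and 3.25), and THBS1 was lower in both settings, with log2 fold changes of -1.99 without and -3.73 with Dox. None of the 11 tested genes of the IL-1 family and none of the 8 chemokines had a difference that was called. With 1.12% called over all genes, none would be likely in lists this small, so equal effects are not shown. Their list medians were 2.01 and 3.69 without Dox and 1.29 and 3.37 with Dox. The members that rose were 7 and 6 without Dox and 5 and 6 with Dox.

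**Figure D5:**
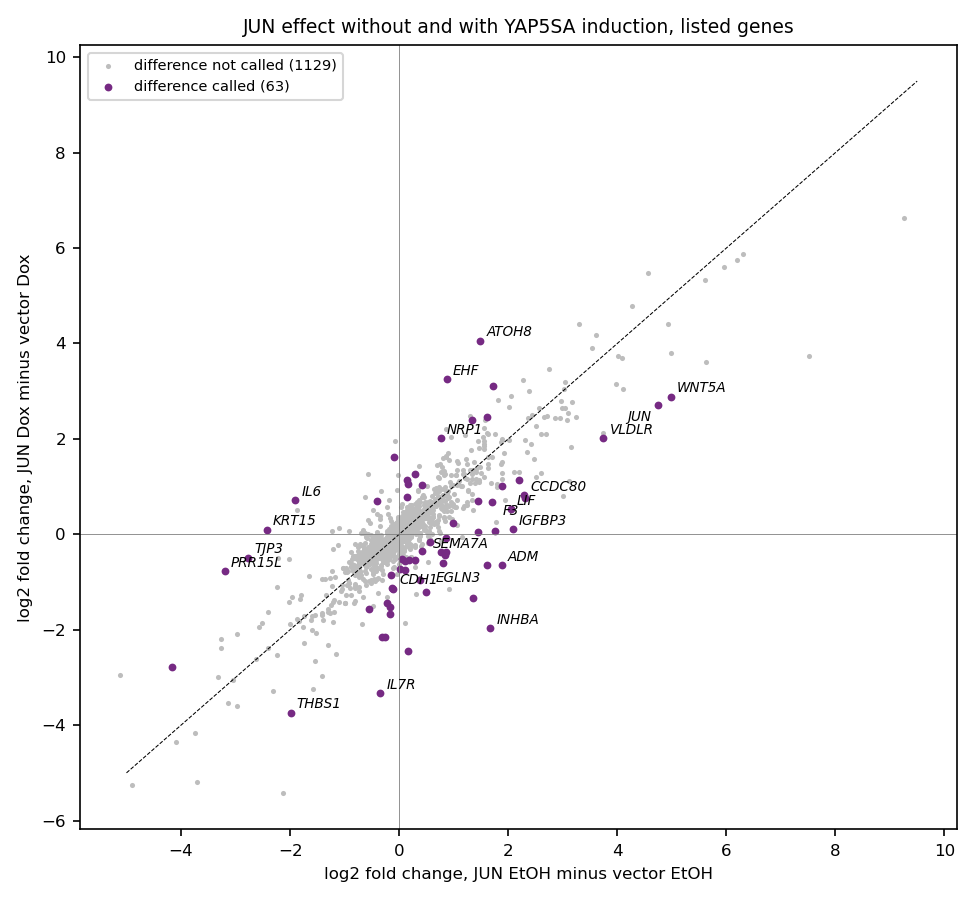
Log2 fold change of JUN over vector without Dox (x axis) and with Dox (y axis) for 1192 genes of the lists; the dashed line marks equal effects, purple points are the 63 genes whose difference was called, and grey points are the other 1129. INHBA, IL7R and THBS1 lie far below the line, and ATOH8, EHF, IL6 and KRT15 above it.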

How the data were processed

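RNA-seq was performed on 3 libraries in each of 4 groups of MCF10A cells. The authors deposited raw read counts for 23459 Entrez gene IDs, made from poly(A) RNA sequenced from 1 end. Per the labels and the study's methods, reads were trimmed with Cutadapt (4.2), aligned to hg19 with Bowtie2 (2.3.5.1 in the submitters' processing notes) and assigned with countOverlaps, after which the authors used DESeq2. The annotation behind the counts is not given in the sources used here. Bowtie2 does not split reads over introns, so reads across exon junctions are largely lost. Whole counts were used as deposited. RefSeq gave symbols for 99.4% of the IDs, and positions are from GENCODE v44lift37 (GRCh37).

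Genes were filtered with filterByExpr (minimum count 10, minimum total 15), leaving 14775, and fitted with the edgeR (4.0.16, R 4.3.3) quasi-likelihood test with TMM scaling on all 12 libraries, which shared 1 estimate of spread (biological coefficient of variation 12.5%). Group, JUN EtOH minus vector EtOH, was tested two-sided, and the interaction was the JUN effect with Dox minus that without. P-values were adjusted by Benjamini-Hochberg over all 14775 genes, with a threshold of 0.05. SE was taken as the log2 fold change over the root of F. CPM used TMM-scaled library sizes, and ± after a CPM value is the SD with n = 3.

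The 56 gene lists (1401 genes) and their members were chosen with earlier results of these data known, and are described by counts and medians. Named genes were JUN, YAP1, the AP-1 genes, the 12 largest rises and falls with at least 5 CPM, anchor genes of each list and up to 4 called members per list and direction. Some genes that the rule covers are not reported here. The fit was tested on simulated counts. Alternatives were DESeq2 (1.42.0), RLE and upper-quartile scaling, other filters, only the 6 libraries, a replicate block, GC content (the GC trend of each library within its group), genes without overlaps, testing for more than a 1-unit log2 change, and leaving out each library.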

Additional observations from a re-analysis of the deposited data

Results flagged for a closer look

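Of the 226 genes followed individually, 33 had a JUN effect that differed between cells without and with YAP5SA induction by the test of the difference itself (edgeR, adjusted p under 0.05 over all genes tested). The difference, given here as the log2 JUN effect with Dox minus that with EtOH, was below 0 in 24 of them and above 0 in 9. The JUN count itself was among the former (-2.03, adjusted p = 0.000133), so the libraries differ in how far JUN was raised over its own control as well as in YAP5SA.

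The differences below 0 included INHBA (-3.64, adjusted p = 3.67e-06), IL7R (-2.98), ADM (-2.53), WNT5A (-2.09), IGFBP3 (-1.97), THBS1 (-1.75), VLDLR (-1.73), SEMA7A (-1.69), F3 (-1.55), LIF (-1.51), CCDC80 (-1.48) and HBEGF (-1.06). The others were EGLN3 (-2.25, overlapping SPTSSA), PHLDA1 (-1.39), CCND2 (-1.25), CDH1 (-1.03), CA12 (-1.02), CCND1 (-0.99), FOSL2 (-0.94), DUSP5 (-0.76), ZFP36L1 (-0.75), EPHA2 (-0.72) and MAFK (-0.57). In IL7R, CDH1, CCND1 and MAFK the log2 JUN effect without Dox was not called (-0.35, -0.11, -0.12 and 0.05), and with Dox it was -3.33, -1.14, -1.12 and -0.52.

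Above 0 were IL6 (2.63, overlapping STEAP1B), ATOH8 (2.58), KRT15 (2.53), PRR15L (2.43), EHF (2.38), TJP3 (2.28, overlapping APBA3), HR (1.38), NRP1 (1.25) and LTBP1 (0.84). KRT15 and PRR15L, which fell without Dox (log2 fold changes -2.43 and -3.20), were at 0.10 and -0.77 with Dox.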

How the results depend on the processing

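Of the 5766 genes called for JUN without Dox, 99.6% kept their call and direction under DESeq2, 98.9% in a fit of only the 6 libraries, 96.8% with upper-quartile scaling and 96.5% with the replicate number as a block. The total was 7282 in the fit of 6 libraries, 6776 with the GC trend within groups as a covariate, 6158 under DESeq2, 5750 with RLE scaling, 5811 with upper-quartile scaling, 5439 without a filter and 4901 at 5 CPM or more. It moved to 485 when the change had to exceed 1 on the log2 scale and to 3476 among genes without overlaps (8265 tested), which is fewer genes by construction, and ran from 3834 to 5228 when single libraries were left out. The interaction, called for 165 genes (1330 at an unadjusted p under 0.05), was called for 358 by DESeq2 and for 97 to 249 when single libraries were left out; the cause was not tested. Promoters with the AP-1 motif went from 3.42% to 4.95% when its middle base was left free (TGANTCA).

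Same-numbered vector and JUN libraries deviated together weakly (correlations 0.153, 0.0825 and 0.0743), so the numbers were not taken as pairs; with a replicate block 5871 genes were called for JUN and 197 for the interaction, and the block ended no call of a named gene, while FOS (adjusted p = 0.0211) and KRT5 (0.0358) then passed.

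Among the named genes, direction changed only where the log2 fold change was close to 0. ATF3 was -0.0136 with upper-quartile scaling, -0.0255 with the block, -0.0246 among genes without overlaps, -0.0120 with GC content and -0.218 to 0.183 when single libraries were left out. JDP2 was -0.00985 with upper-quartile scaling, -0.0176 among genes without overlaps and -0.0242 to 0.0326 when single libraries were left out. COL1A1 was 0.00198 in the fit of 6 libraries and -0.154 to 0.15 when single libraries were left out, and BATF3 was -0.237 to 0.152 in the latter fits. In the fit of 6 libraries FOS (adjusted p = 0.0162), KRT5 (0.0108), YAP1 (0.00251), EGFR (0.00117) and ATF7 (0.00803) passed the threshold, as did KRT5 under DESeq2 (0.0442) and, with GC content, KRT5 (0.0144) and YAP1 (0.00543). Of 894 list medians under other settings, 102 moved by more than the replicate spread, 62 of them on leaving out a library. Depth limits genes under about 1 CPM.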
